A study of Mus musculus with 2 samples.

Results

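The 127 genes of this account carry symbols given to proteins of the cytosolic ribosome (51 genes) and of the mitochondrial ribosome (76 genes). They were chosen by symbol alone, from probe sets that the array annotation assigns to a single gene: symbols that begin with Rpl, Rps, Mrpl or Mrps followed by a digit, together with Rplp0, Rplp2 and Rpsa, and without the S6 kinases. They stand on 263 of the 45101 probe sets of the array and make up 127 of 18194 annotated genes. The 51 cytosolic symbols also take in a few paralogs and namesakes that are not core subunits, such as the pseudogene Rps15a-ps6 and Rps19bp1, which is not a ribosomal protein. Neither class was checked against the makeup of the assembled ribosome.

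The question was how these transcripts differed when Lpcat3, an acyltransferase that places polyunsaturated fatty acids into membrane phospholipids, was removed from hepatocytes. The first sample was a pool of livers from 5 male Lpcat3fl/fl Albumin-Cre mice (L-Lpcat3 KO), and the second a pool from 5 male Lpcat3fl/fl mice (control). All mice carried the floxed allele and were 16 weeks old at harvest, after 9 weeks of western diet begun at 7 weeks, and had no food for the last 6 hr. The Albumin promoter drives Cre in hepatocytes, so the other cells of the liver keep the gene, and the control mice carry no Cre. Each genotype is a single array, so no spread between mice was measured and no test could be run. In whole liver, fewer cells of a type and less RNA per cell cannot be told apart.

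Both arrays had the same trimmed mean signal (500), and their median signals were 90.0 in the L-Lpcat3 KO pool and 83.1 in the control pool. Signal is the linear MAS5 intensity of a probe set. The probe set with the highest mean log2 signal stood for its gene, and the gene counted as measured when that probe set reached 86.6, the median of all values, on at least 1 array; 12290 genes did so. The single Lpcat3 probe set read 2198 in the L-Lpcat3 KO pool and 5173 in the control pool (log2 ratio -1.23), and the sources used here do not say whether it lies in the floxed exon. As a measure of technical spread, the log2 ratios of different probe sets of the same gene had a pooled SD of 0.285 over 4476 genes. This SD covers neither the animals nor the preparation of the RNA.

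Ribosomes in the cytosol translate the messages of the nucleus, and in hepatocytes they carry the synthesis of albumin, clotting factors and apolipoproteins. Each is built from a large subunit, which forms peptide bonds, and a small subunit, which decodes the message; transcripts of their proteins are among the most abundant in any cell. Many of these transcripts begin with a 5′ terminal oligopyrimidine (TOP) run, a C followed by further C and T, through which mTOR signalling sets their translation. Mitochondrial ribosomes are a separate machine that makes a handful of respiratory chain and ATP synthase subunits encoded in mitochondrial DNA. Their proteins are encoded in the nucleus, made in the cytosol and imported.

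The sequence around the annotated start site shows a TOP run only if the run lies at or close to that annotated base. The windows below hold 15 bases before and 15 bases after the start, 5′ to 3′, from RefSeq on build GRCm38.p6, with the TOP run in capitals, for genes on which the results turn. Rps27 (chr3:90213634-90213663, minus strand) gave the lowest log2 ratio among the members' representing probe sets. Rps6 (chr4:86857353-86857382, minus strand) is the substrate of the S6 kinases. Both begin with a run at the annotated start. Rpl37a (chr1:72711245-72711274, plus strand) and Rplp0 (chr5:115559452-115559481, plus strand) show no run within 5 bases of it. This describes the annotated base and does not show that their transcripts lack a run. The mitochondrial Mrps18a (chr17:46110989-46111018, plus strand), Mrpl33 (chr5:31613936-31613965, plus strand), Mrps9 (chr1:42851218-42851247, plus strand) and Mrpl47 (chr3:32736741-32736770, minus strand), which lay at the ends of their classes, show none either.
Rps27: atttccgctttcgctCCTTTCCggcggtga
Rps6: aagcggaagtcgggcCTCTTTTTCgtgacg
Rpl37a: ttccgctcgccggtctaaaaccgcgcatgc
Rplp0: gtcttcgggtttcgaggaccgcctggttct
Mrps18a: agtgcacacgcggtcaggtgcgttccaaga
Mrpl33: cccgcgcatgccccggaagtagtcgttgag
Mrps9: tgggaggtctgcgcctgcgcagtctccagg
Mrpl47: gacaccgacactgtgggtctccattagaaa

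Transcripts of cytosolic ribosomal proteins had nearly the same signal in both pools. Of 51 genes, 47 were measured, each on both arrays, and 30 of them (63.8%) had a log2 ratio (L-Lpcat3 KO pool over control pool) within 0.1 of 0, against 26.8% of all measured genes. Their median log2 ratio was 0.03 with quartiles of -0.05 and 0.09, while all measured genes had a median of 0.01 and quartiles of -0.18 and 0.24. Setting the medians of the arrays equal instead gave the class a median of -0.086 and shifted that of all genes by -0.11, so the sign of the class median depends on the scaling. Relative to all genes the class median was 0.02 under either scaling, 0.097 after quantile normalization and 0.074 after loess. None of the 47 genes was at least 1.5-fold higher in the L-Lpcat3 KO pool and 1 was at least 1.5-fold lower; over all measured genes 9.07% were higher and 3.83% lower by that much. The gene that was lower is Rps27, and it was also past 2-fold, where the shares of all genes were 2.70% higher and 0.700% lower. The SD of the log2 ratio over the 47 genes was 0.308 and was 0.136 without Rps27. The 4 other symbols (Rpl39l, Rpl3l, Rps15a-ps6 and Rps16) read below the floor on both arrays.

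Transcripts of mitochondrial ribosomal proteins were all measured on both arrays (76 of 76), and none differed by 1.5-fold in either direction. Their log2 ratios ran from -0.56 to 0.52 with a median of -0.03, and their quartiles of -0.14 and 0.06 lay further apart than those of the cytosolic class. The difference in spread between the classes was not tested, and the classes also differ in signal. Of the 76 genes, 48 were below 0 (63.2%) and 28 above, beside 48.8% of all measured genes below 0. At 1.25-fold, a size chosen after the values were seen, 5 were higher and 6 lower in the L-Lpcat3 KO pool, against 1 higher and 2 lower of the 47 cytosolic genes; over all measured genes 19.5% were higher and 12.9% lower. With array medians set equal the class median was -0.15 and 1 gene, Mrps9, passed 1.5-fold downward. That scaling shifted the median of all measured genes by -0.11. Relative to all genes the class median was -0.044 with it and -0.041 without it.

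**Figure D1:**
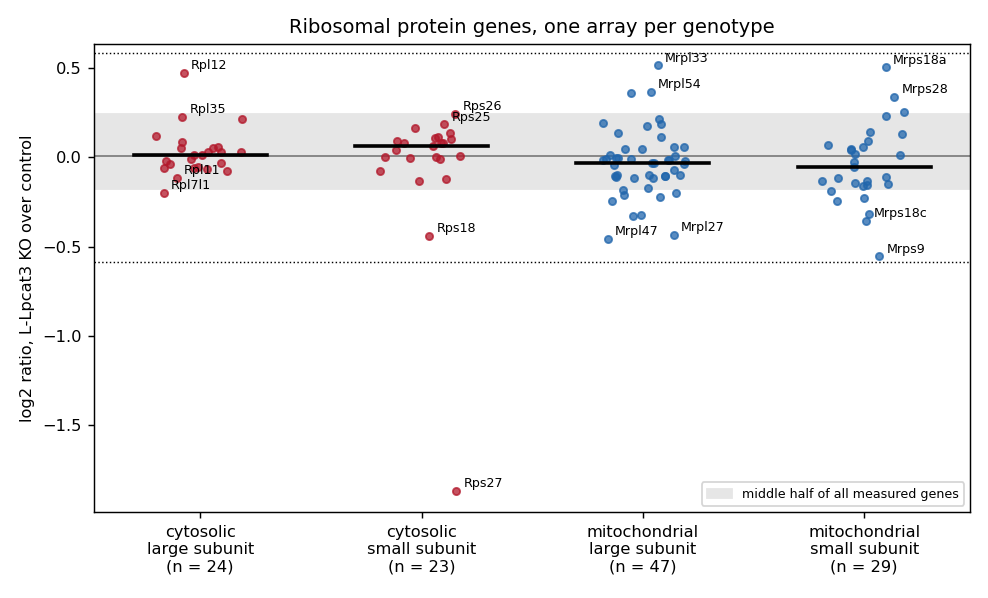
Log2 ratio of signal, L-Lpcat3 KO pool over control pool (vertical axis), for each measured gene (points) in 4 classes by ribosome and subunit (horizontal axis, spread sideways for legibility), with class medians as bars, the quartile range of all measured genes in grey and 1.5-fold as dotted lines; each genotype is 1 array. Rps27 alone lies beyond the dotted lines, and the 4 medians lie between -0.05 and 0.07.

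Members were also set beside genes of like signal. The 35 cytosolic ribosomal genes with a mean log2 signal of at least 12.5 had log2 ratios with an SD of 0.121, against 0.254 for all 921 measured genes in that range. Of the 35, 1 (Rps18) differed by 1.25-fold in either direction, where 17.3% of the 921 did. The ribosomal genes lay below 0 in 37.1% of cases with a median of 0.02, whereas genes of that range as a whole lay below 0 in 66.4% with a median of -0.08. The 68 mitochondrial ribosomal genes with a mean log2 signal from 9.5 to below 12.5 had an SD of 0.191, against 0.329 for all 4371 genes there. Of the 68, 8 differed by 1.25-fold, where 20.0% of the 4371 did. They lay below 0 in 61.8% of cases with a median of -0.024, and the 4371 genes in 54.6% with a median of -0.031, so genes of like signal also leaned below 0.

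**Figure D2:**
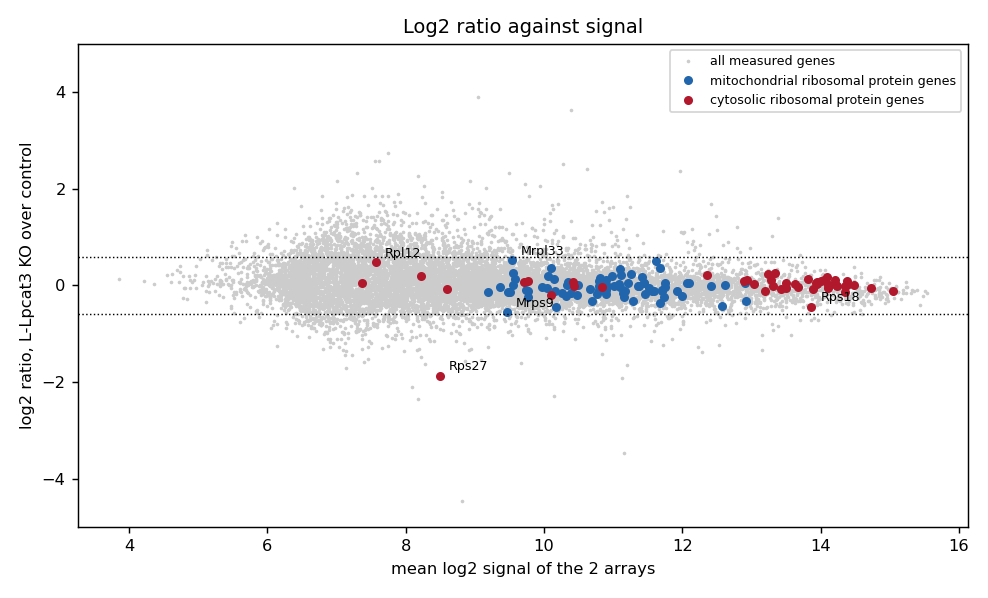
Log2 ratio of signal, L-Lpcat3 KO pool over control pool (vertical axis), against the mean log2 signal of both arrays (horizontal axis) for the 47 cytosolic ribosomal genes in red, the 76 mitochondrial ones in blue and all 12290 measured genes in grey, with 1.5-fold as dotted lines. Most cytosolic genes sit at the bright end close to 0, and Rps27 sits among dim probe sets at -1.87.

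In the large cytosolic subunit the 24 measured genes had a median log2 ratio of 0.01 and ran from -0.20 to 0.48. Rplp0, the protein that anchors the stalk on which elongation factors dock and, as 36B4, a reference transcript for real-time PCR in the study, read 17873 in the L-Lpcat3 KO pool and 17683 in the control pool (log2 ratio 0.02). Rplp2, one of the acidic proteins of the same stalk, read 17594 and 16215 (0.12). The stalk members were thus nearly level between pools. Glyceraldehyde-3-phosphate dehydrogenase (Gapdh), the other reference transcript, had log2 ratios of -0.02 to 0.01 on its 3 control probe sets.

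The highest ratios of that subunit were those of Rpl12, Rpl35 and Rpl22l1. Rpl12, which sits at the base of the stalk, read 224 in the L-Lpcat3 KO pool and 161 in the control pool (0.48). Rpl35, which lies where the growing peptide leaves the ribosome, read 10498 and 8970 (0.23), and its 6 probe sets were all higher in the L-Lpcat3 KO pool, by 0.15 to 0.37. Of the 47 genes, Rpl12 alone was past 1.25-fold upward.

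Rpl22l1 and Rpl22 are paralogs, and loss of Rpl22 in mice blocks the development of T cells of the alpha-beta lineage. Rpl22l1 read 5639 in the L-Lpcat3 KO pool and 4864 in the control pool (0.21). Rpl22 read 14831 and 15522 (-0.07), but its 3 probe sets ran from -0.57 to 0.09, and the lowest read 3608 in the L-Lpcat3 KO pool and 5374 in the control pool. The paralogs thus had opposite signs on their leading probe sets, and the difference between them was no larger than the pooled SD of probe sets.

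The lowest ratios of the large subunit were small. Rpl7l1, a paralog of Rpl7, read 1023 in the L-Lpcat3 KO pool and 1173 in the control pool (-0.20), and Rpl7 itself read 12910 and 13219 (-0.03). Rpl11, which with Rpl5 binds Mdm2 and so links ribosome assembly to p53, read 9024 and 9779 (-0.12). Rpl39, which lines the exit tunnel, read 379 and 400 (-0.08), against a log2 ratio of 0.05 on a far brighter probe set shared with another locus. None of these reached 1.25-fold.

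In the small cytosolic subunit the 23 measured genes had a median of 0.07, and all but Rps27 and Rps18 lay between -0.13 and 0.25. Rps27, a zinc-binding protein of this subunit, read 188 in the L-Lpcat3 KO pool and 689 in the control pool on its only probe set of single annotation, a log2 ratio of -1.87 or 3.66-fold lower. A further probe set is annotated jointly to Rps27 and Rps27rt and read 8149 in the L-Lpcat3 KO pool and 8487 in the control pool (-0.06). The probe sets of Rps27 thus disagree on a difference between the pools. Its paralog Rps27l read 19970 and 21927 (-0.13), with 3 probe sets from -0.14 to -0.11.

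Rps18, a protein of the head of the small subunit, was the other member past 1.25-fold downward. Its leading probe set read 12835 in the L-Lpcat3 KO pool and 17414 in the control pool (-0.44). Another read 14890 and 14778 (0.01), and the last 11462 and 12070 (-0.07), so the difference rested on 1 of 3 measured probe sets. Rps29, a zinc-binding neighbour in the head, read 32575 and 35468 (-0.12), and its 3 probe sets ran from -0.21 to 0.05.

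At the upper end of the small subunit stood Rps26, Rps25, Rps4x and Rps7. Rps26, mutated in some people with the inherited Diamond-Blackfan anaemia, read 11336 in the L-Lpcat3 KO pool and 9557 in the control pool (0.25). Rps25 read 319 and 281 (0.19) on its singly annotated probe set, against 10323 and 11076 (-0.10) on a probe set shared with further loci. Rps4x, encoded on the X chromosome, read 18444 and 16417 (0.17), and Rps7 read 15099 and 13719 (0.14). Each of these differences was smaller than the pooled SD of 0.285.

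Further cytosolic subunits could be read only from probe sets annotated to a ribosomal gene and at least 1 other locus, since processed pseudogenes of these genes are frequent in the genome. Of 114 such probe sets, 105 were measured, with a median log2 ratio of -0.02 and a range from -0.83 to 0.55. Of the symbols counted as core, 29 cytosolic and 2 mitochondrial ones appeared on the array only in this way. The 29 include Rpl37rt and Rps27rt, which share probe sets with Rpl37 and Rps27, so the number of subunits among them is smaller. Rps6, the S6 kinase substrate, read 1375 in the L-Lpcat3 KO pool and 1381 in the control pool (-0.01) on its own probe set, and 8 measured probe sets shared with Rps6-ps4 ran from -0.35 to -0.02. Rps16, below the floor on its own probe set, read 20682 and 20023 (0.05) and 17936 and 16536 (0.12) on shared ones. Rpl12, the highest member of the class, read 5149 and 4616 (0.16) and 10769 and 11352 (-0.08) on shared probe sets. Of the 105, 3 were at least 1.5-fold lower and none higher in the L-Lpcat3 KO pool, below the 4.45% lower and 8.23% higher among all measured probe sets of a single gene. One is shared by Rpl21 and read 111 in the L-Lpcat3 KO pool and 198 in the control pool (-0.83), one by Rpl37 (177 and 313, -0.82) and one by Rpl3 (88 and 141, -0.69). Further shared probe sets of Rpl21 read 9532 and 9813 (-0.04) and 12899 and 12851 (0.005). Others read 13328 and 13969 (-0.07) for Rpl37 and 15322 and 13848 (0.15) for Rpl3.

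The members' own probe sets show where the large ratios lie. Of 96 measured probe sets of cytosolic genes, 2 were at least 1.5-fold lower and none higher, where 4.45% of all measured probe sets were lower and 8.23% higher. Both were below a mean log2 signal of 10. The 75 cytosolic probe sets at or above that signal ran from -0.57 to 0.37 with an SD of 0.143, and the 21 below it ran from -2.12 to 0.48 with an SD of 0.646. Beside Rps27, the other was a probe set of Rpl37a that read 173 in the L-Lpcat3 KO pool and 748 in the control pool (-2.12). The leading probe set of Rpl37a read 19154 and 19401 (-0.02) and another read 12890 and 12964 (-0.01). Rpl37a was therefore level between pools on 2 of its 3 probe sets.

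**Figure D3:**
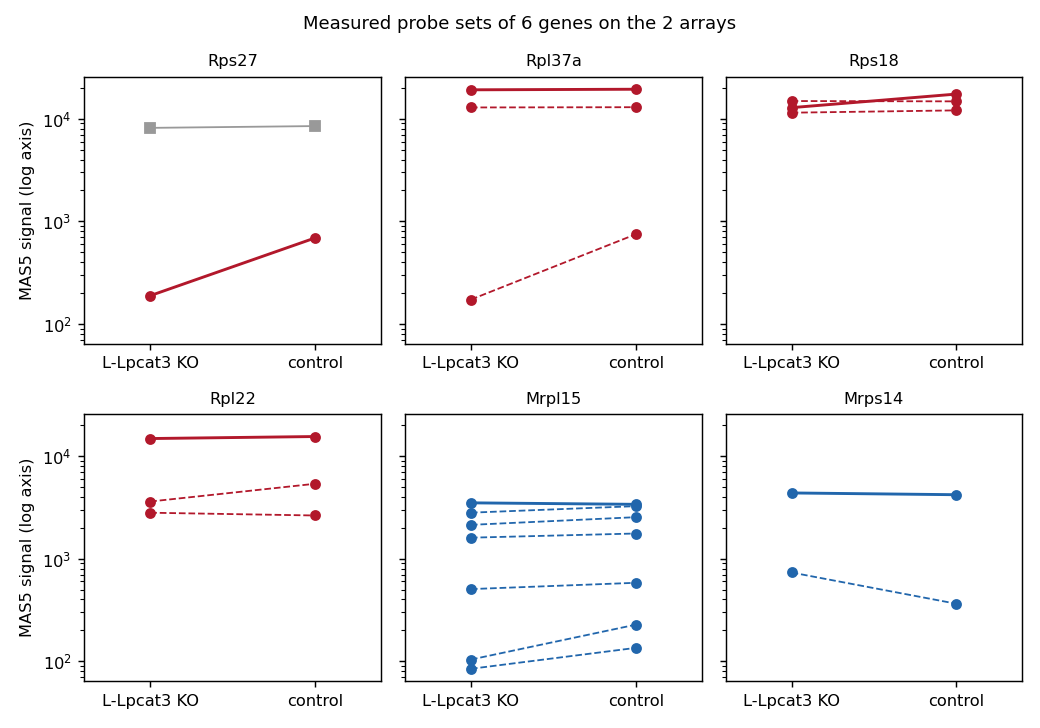
MAS5 signal (vertical axis, log scale) of every measured probe set of 6 genes in the L-Lpcat3 KO pool (left) and the control pool (right of each panel); solid coloured lines join the values of the probe set that represents the gene, dashed lines those of its other probe sets, and grey squares a probe set annotated jointly to Rps27 and Rps27rt. The steep lines belong to the probe set of Rps27 at 188 and 689, one of Rpl37a at 173 and 748, one of Mrpl15 at 104 and 227 and one of Mrps14 at 733 and 363.

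In the large mitochondrial subunit the 47 genes had a median log2 ratio of -0.03; at 1.25-fold 3 were higher and 4 lower, where 19.5% of all measured genes were higher and 12.9% lower. Mrpl33, counterpart of a bacterial large subunit protein, read 891 in the L-Lpcat3 KO pool and 623 in the control pool (0.52). Mrpl54, which has no bacterial counterpart, read 1246 and 966 (0.37), and Mrpl16 read 3726 and 2900 (0.36). Mrpl23, at the exit of the peptide tunnel, read 2381 and 2048 (0.22). Each of these 4 genes had 1 measured probe set, so no second probe set could be set beside the ratio.

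At the lower end stood Mrpl47, Mrpl27, Mrpl14 and Mrpl39. Mrpl47, at the tunnel exit, read 988 in the L-Lpcat3 KO pool and 1355 in the control pool (-0.46). Mrpl27, which reaches towards the site of peptide bond formation, read 5239 and 7086 (-0.44), and its other probe set read 236 and 407 (-0.79). Mrpl39, which resembles a tRNA synthetase, read 6935 and 8674 (-0.32), with -0.27 on its other probe set. Mrpl27 and Mrpl39 were thus lower in the L-Lpcat3 KO pool on both of their probe sets, while Mrpl14 (1486 and 1864, -0.33) and Mrpl47 had a single measured one. Mrpl12, a stalk protein that also binds the mitochondrial RNA polymerase, read 7806 and 7509 (0.06).

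The probe sets of Mrpl15 spread most among the mitochondrial genes. The leading one read 3502 in the L-Lpcat3 KO pool and 3387 in the control pool (0.05), and the other 6 measured ones were all lower in the L-Lpcat3 KO pool, from -0.14 to -1.13, the last at 104 and 227. Of Mrpl3, the leading probe set read 758 and 750 (0.02) and another 336 and 539 (-0.68). For both genes the leading probe set alone would hide that spread.

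In the small mitochondrial subunit the 29 genes had a median of -0.05; at 1.25-fold 2 were higher and 2 lower, again beside 19.5% and 12.9% of all measured genes. The 3 paralogs that descend from a single bacterial protein of the small subunit parted. Mrps18a, which in the assembled mammalian ribosome lies in the large subunit, read 3751 in the L-Lpcat3 KO pool and 2641 in the control pool (0.51). Mrps18b read 1782 and 2029 (-0.19), and Mrps18c read 2912 and 3724 (-0.35). Each of the 3 had 1 probe set, and each of Mrps18a and Mrps18c lay further from 0 than the pooled SD of probe sets.

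Mrps9, counterpart of a bacterial small subunit protein, had the lowest ratio of the class at 585 in the L-Lpcat3 KO pool and 859 in the control pool (-0.56). Its 3 other probe sets read from 0.04 to 0.17, so the sign of Mrps9 turned with the probe set. Mrps10 read 2240 and 2794 (-0.32), and its other probe set, above the floor on 1 array, had 0.38. Mrps5, which contributes to the accuracy of decoding, read 804 and 951 (-0.24), and its 5 probe sets ran from -0.24 to 0.67. These 3 genes had no common sign over their probe sets.

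At the upper end, Mrps28 read 2478 in the L-Lpcat3 KO pool and 1958 in the control pool (0.34). Mrps23 read 818 and 685 (0.26), with the lowest of its 3 probe sets at -0.004. Mrps16, mutated in a human disorder of oxidative phosphorylation, read 2660 and 2267 (0.23). Mrps14 was level on its leading probe set at 4373 and 4203 (0.06), while a second read 733 in the L-Lpcat3 KO pool and 363 in the control pool (1.01). Over all 139 measured mitochondrial probe sets, 2 were at least 1.5-fold higher and 4 lower, where 8.23% of all measured probe sets were higher and 4.45% lower, and all 6 were below a mean log2 signal of 10. The higher ones were those of Mrps14 (1.01) and Mrps5 (0.67), and the lower ones those of Mrpl27 (-0.79), Mrpl3 (-0.68) and Mrpl15 (-0.64 and -1.13).

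Agreement between probe sets could be read for 57 of the 123 measured genes, which had more than 1 measured probe set. Their log2 ratios differed within a gene by a median of 0.20 for 21 cytosolic genes and 0.27 for 36 mitochondrial genes. Within 0.3 lay 15 of the 21 and 20 of the 36, and over 1 lay 1 gene in each class, Rpl37a and Mrpl15. By their leading probe sets, 3 cytosolic genes (Rpl12, Rps18 and Rps27) and 12 mitochondrial genes lay further from 0 than the pooled SD of 0.285. Of those 12, 5 were higher and 7 lower in the L-Lpcat3 KO pool. The share of all measured genes past that SD was not counted. At 1.25-fold, a slightly larger difference, 19.5% of all measured genes were higher and 12.9% lower. At that fold 1 of the 47 cytosolic genes was higher and 2 lower. Of the 76 mitochondrial genes 5 were higher and 6 lower. Both classes thus had smaller shares than all measured genes in each direction, and this difference was not tested.

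The TOP run and promoter motifs were counted in RefSeq windows of 300 bases (250 before to 50 after the start, GRCm38.p6), which matched 44 cytosolic and 67 mitochondrial genes with 52 and 73 promoters. A TOP run, taken as a C followed by at least 4 C or T that begins within 5 bases of the start, stood in 40.4% of cytosolic, 23.3% of mitochondrial and 18.3% of all 32851 promoters. Exactly at the start it stood in 15.4% of cytosolic promoters, none of the 73 mitochondrial ones and 2.51% of all. On both strands, the ETS motif CGGAAG stood in 61.5% of cytosolic and 53.4% of mitochondrial promoters against 16.9% of all. The YY1 motif AAGATGGC stood in 7.69%, 16.4% and 2.75%, and the NRF1 motif GCGCATGCG in 3.85%, 9.59% and 1.75%, in the same order. The letters AAG end the ETS motif and begin the YY1 motif, so that one stretch can hold both. These counts describe the letters in the windows and not binding. The TOP shares depend on where the start is annotated, so they are not shares of transcripts that carry a run.

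The log2 ratios of genes with and without the run overlapped in their quartiles, and the difference was not tested. The 20 measured cytosolic genes with a TOP run had a median log2 ratio of 0.04 (quartiles -0.06 and 0.10) and the 21 without one 0.03 (-0.03 and 0.10). The mitochondrial medians were -0.01 for 17 genes with a run (quartiles -0.11 and 0.06) and -0.06 for 50 without (-0.16 and 0.05).

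Other translation genes, listed by pathway, had medians from -0.06 to -0.02. Ribosomal proteins and ribosome partners named outside the rule were Fau (11633 in the L-Lpcat3 KO pool and 11935 in the control pool, -0.04) and 5 mitochondrial ones. The 5 had a median of -0.06, from Oxa1l at -0.31 to Ptcd3 at 0.01. The other measured probe set of Oxa1l was level at -0.001. Of 15 TOP genes for translation factors and their partners, 14 were measured with a median of -0.02. None was past 1.5-fold, where 9.07% of all measured genes were higher and 3.83% lower. Nap1l1, a histone chaperone, was the highest at 0.43 and Btf3, part of the nascent chain complex, the lowest at -0.30; the elongation factors Eef1a1 and Eef2 stood at -0.06 and -0.07.

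Of 40 ribosome biogenesis genes, all measured, the median was -0.03. None was at least 1.5-fold higher and 1 was lower, where 9.07% of all measured genes were higher and 3.83% lower. Polr1a, the largest subunit of RNA polymerase I, read 231 in the L-Lpcat3 KO pool and 357 in the control pool (-0.63), but its other measured probe set read 132 and 115 (0.21). Ubtf, a factor for the same polymerase, read 1090 and 777 (0.49). Rrp9 (-0.55) and Nob1 (-0.47), which act in rRNA processing, were next lowest, and Nop58 (0.51), a protein of the small nucleolar particles, and Eif6 (0.46), which keeps the large subunit from joining too early, were among the highest. Of 32 genes for mitochondrial translation factors, transcription and tRNA synthetases, 29 were measured with a median of -0.04. Of the 29, 1 was at least 1.5-fold higher and none lower, beside the same shares of all measured genes. Wars2, the mitochondrial tryptophanyl-tRNA synthetase, read 192 and 127 (0.59), with 0.26 on its other measured probe set. Vars2 was the lowest at -0.51, with -0.24 on its other probe set. Polrmt, the mitochondrial RNA polymerase, read 1567 in the L-Lpcat3 KO pool and 2042 in the control pool (-0.38), but its other measured probe set read 548 and 451 (0.28).

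Marker genes of several cell types differed in signal between the pools. The 11 measured hepatocyte markers had a median log2 ratio of -0.12, and none passed 1.5-fold. Over all measured genes 9.07% were at least 1.5-fold higher in the L-Lpcat3 KO pool and 3.83% lower. Of 11 macrophage markers 10 were at least 1.5-fold higher in the L-Lpcat3 KO pool, with a summed signal of 33369 against 14985 in the control pool. All 5 measured B cell markers were at least 1.5-fold higher, with a sum of 4537 against 898, and so were both measured adipocyte markers. Of 5 stellate cell markers 4 were at least 1.5-fold higher, and the 5 had a median of 1.07. In the control pool 2 of the 5 B cell markers and neither adipocyte marker reached the floor, so the log2 ratios of those under it are lower bounds. Of T cell markers 2 were measured, both above the floor only in the L-Lpcat3 KO pool (Cd3e at 115 against 19.3 in the control pool, and Cd2 at 116 against 64.5), so that their floored log2 ratios of 0.41 and 0.43 are lower bounds. Cd3d and Cd3g were below the floor on both arrays. Every cell type expresses ribosomal proteins, and the part of these markers' cells in the ribosomal values was not tested.

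RNA quality was alike by the controls on the arrays. The ratio of 3′ to 5′ signal was 0.822 in the L-Lpcat3 KO pool and 0.810 in the control pool for Gapdh, and 2.28 in each for β-actin. The 3 control probe sets of 18S ribosomal RNA had log2 ratios of -0.02, 0.004 and 0.08. For the 18 spiked hybridization controls the median of the log2 ratios was -0.13.

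**Figure D4:**
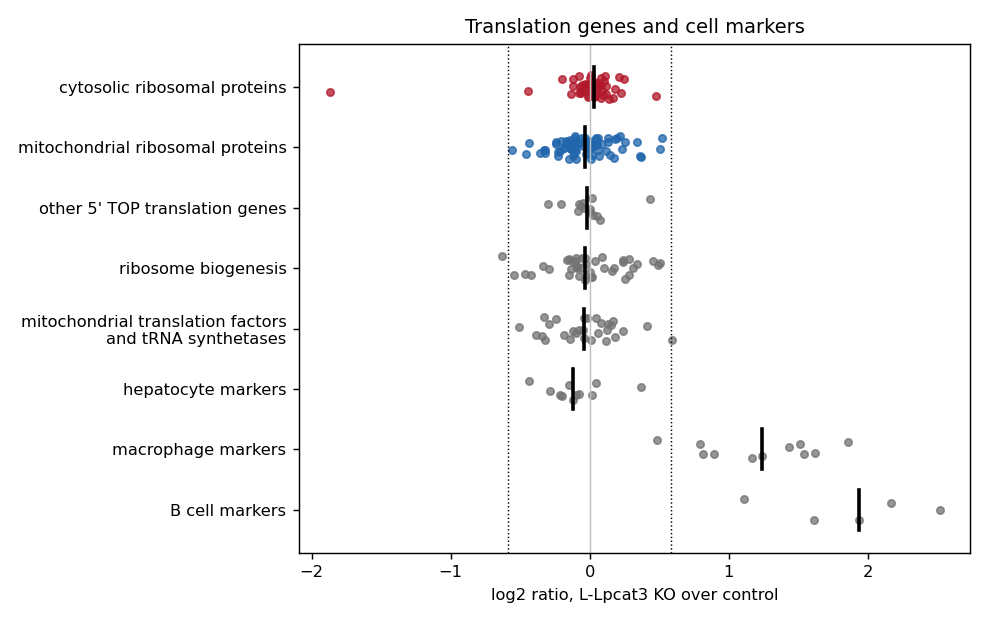
Log2 ratio of signal, L-Lpcat3 KO pool over control pool (horizontal axis), for each measured gene (points) of the ribosomal classes, other translation lists and cell type markers (rows, spread up and down for legibility), with medians as bars and 1.5-fold as dotted lines. The translation lists centre between -0.04 and 0.03, whereas the macrophage and B cell markers centre at 1.24 and 1.94.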

How the data were processed

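Total RNA of 2 liver pools, 1 per genotype, was hybridised to Affymetrix mouse whole-genome arrays. The deposited values are linear signal intensities that the authors made with MAS5 (a name from the processing notes of the submitters; version not given in the sources used here) and scaled to a trimmed mean of 500 on each array; they were used as deposited. All columns were mapped to a sample (0 without one). Of 45101 probe sets, 34945 carried a single gene symbol, 932 more than 1, 64 were controls and 9160 were unnamed; genes were named from 1-symbol probe sets only, and the 127 members were all found in the RefSeq gene table.

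Values below 86.6 were raised to it before log2 ratios (L-Lpcat3 KO pool over control pool) were formed. The probe set with the highest mean log2 signal stood for its gene. With 1 array per genotype no test was run; genes were counted at 1.5-fold, and the alternatives were other scalings, floors, probe set choices and folds. Text names, per ribosome and subunit, the 4 highest and 4 lowest genes, every member past 1.5-fold or with probe sets over 2-fold apart, Rplp0, paralog pairs and the extremes of the other lists; other genes were named after their values were seen. Members, lists and promoter motifs were chosen with earlier results of these data known. Ratios were computed in Python 3.11.15 with pandas 2.3.3, numpy 2.4.6 and statsmodels 0.14.6 (loess span 0.3), on code tested on simulated data. Precision is limited by the number of arrays.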

Additional observations from a re-analysis of the deposited data

How the results depend on the processing

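No paired analysis was possible because each genotype has 1 pool. For the cytosolic class, the median log2 ratio of 0.03 became -0.086 with array medians set equal, 0.093 after quantile normalization and 0.096 after loess. Its 1 gene at least 1.5-fold lower (Rps27) became 2 (Rps27 and Rpl37a) when the probe sets of a gene were averaged. For the mitochondrial class, the median of -0.03 became -0.15 with array medians set equal, and its count of 0 lower became 1 under that scaling (Mrps9), 1 with averaged probe sets (Mrpl27) and 1 with probe sets of a single transcript (Mrpl15). The count of 0 higher held in both classes under each scaling, floor, pseudocount and probe set choice tried. Other choices were made after seeing the data: at 1.25-fold the cytosolic counts were 1 higher and 2 lower and the mitochondrial ones 5 higher and 6 lower; with jointly annotated probe sets added 4 cytosolic entries were lower; and without Rps27 there were 0. Asking that the TOP run start exactly at the annotated base gave 15.4% of cytosolic promoters in place of 40.4%. Setting array medians equal shifted the median of all measured genes by -0.11. Relative to all genes the mitochondrial median was -0.044 under that scaling and -0.041 without it. The causes of the other changes were not tested. With 1 array per genotype, differences between mice cannot be told apart from genotype, and ratios below a mean log2 signal of 10 had the widest spread.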
